A study of Mus musculus with 6 samples.

Results

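The mitochondrial ribosome is built from RNA made in the mitochondrion and from proteins encoded in the nucleus, and the genes of those proteins carry symbols that start with Mrpl for the large subunit and Mrps for the small one. All rows of the deposited gene table whose symbol was Mrpl or Mrps followed by a number were taken, which gave 77 of 24421 genes, 48 with a large subunit symbol and 29 with a small subunit symbol. The rule reads the symbol alone. All 77 genes reached 1 FPKM in each of the 6 libraries, so none was lost to the filter on low values. FPKM are fragments per kilobase of transcript, here scaled by a size factor of each library and not by its total of reads. Of the 77, 3 are sorted by symbol in a way that protein structures do not follow: the proteins of Mrps30 and Mrps18a sit in the large subunit, and the Mrps36 protein belongs to the oxoglutarate dehydrogenase complex.

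Mitochondrial ribosomes translate the few messenger RNAs that mitochondrial DNA encodes, which specify core subunits of the respiratory chain and of ATP synthase. The small subunit holds the messenger RNA and reads its codons, and the large subunit forms the peptide bond and releases the new chain at the inner membrane. Heart muscle depends heavily on oxidative metabolism, and inherited defects of several of these proteins, among them those of Mrpl3, Mrpl44 and Mrps22, cause cardiomyopathy in people.

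RNA came from whole mouse hearts of the C57/Bl6 strain at stage E18.5, shortly before birth, in 3 libraries labelled wildtype and 3 labelled Gas2l3 -/-, made from poly(A)-selected RNA without a strand mark in the kit named. The Gas2l3 protein binds actin filaments and microtubules, and the series title connects its loss with the division of cardiomyocytes. Which part of the gene is deleted, whether hearts were pooled and whether libraries of a group came from separate embryos is not given in the sources used here, so any p-value here is set against a spread between libraries that may be technical. Libraries are called by their label and replicate number, wildtype 1 to 3 and Gas2l3 -/- 1 to 3. Gas2l3 itself stood at 10.3, 4.12 and 2.48 FPKM in wildtype 1, 2 and 3 and at 4.03, 2.99 and 3.06 FPKM in Gas2l3 -/- 1, 2 and 3. These groups overlapped, with wildtype 3 the lowest, so the level of the targeted transcript did not check the labels, and every direction below is between libraries as labelled. Heart muscle genes were abundant in all 6 libraries: Actc1, the cardiac actin gene, ran from 8926 to 16886 FPKM and Tnnt2, the cardiac troponin T gene, from 5404 to 8380 FPKM. Markers of neighbouring tissues were low but not all absent: the sum of 3 lung markers reached 0.311 FPKM and that of 3 thymus markers 0.416 FPKM, with 1 of each list (Nkx2-1 and Cd3e) at 0 throughout. Of 5 skeletal muscle markers Myod1 was at 0 throughout and Myog reached 0.266 FPKM, while Acta1 (22.1 to 80.3 FPKM) and Ckm (1185 to 3519 FPKM) are also genes of heart muscle. Liver markers set libraries apart, with sums over 4 genes of 11.3, 13.9 and 6.92 FPKM in wildtype 1, Gas2l3 -/- 1 and Gas2l3 -/- 2 and of 0.649 to 1.3 FPKM in the other 3. The sum of 3 fat markers was 3.41 FPKM in Gas2l3 -/- 2 and at most 0.32 FPKM elsewhere. Whole reads recovered from the FPKM values summed to between 3414257 and 7732674 per library, and a member had from 41 to 7284 reads in a library, with a median of 428.5.

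The base composition of the coding sequences runs through the results below, so stretches of 6 of them are shown first, 3 from genes at opposite ends of the comparison and 3 from a set of paralogs. Each stretch is the first run of 90 bases whose GC content came closest to that of the whole coding sequence in GENCODE M21, written 5′ to 3′ as DNA with G and C in capitals.
Mrpl54: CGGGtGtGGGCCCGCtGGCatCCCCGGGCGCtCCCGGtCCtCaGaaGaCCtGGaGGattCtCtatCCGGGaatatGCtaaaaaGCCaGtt
Mrpl28: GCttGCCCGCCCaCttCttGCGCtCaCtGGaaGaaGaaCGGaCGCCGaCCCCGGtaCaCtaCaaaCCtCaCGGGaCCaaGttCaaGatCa
Mrpl32: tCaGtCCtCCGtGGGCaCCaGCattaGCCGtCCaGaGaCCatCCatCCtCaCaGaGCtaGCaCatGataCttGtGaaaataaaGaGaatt
Mrps18a: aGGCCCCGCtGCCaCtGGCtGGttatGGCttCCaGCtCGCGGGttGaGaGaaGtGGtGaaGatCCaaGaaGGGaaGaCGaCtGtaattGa
Mrps18b: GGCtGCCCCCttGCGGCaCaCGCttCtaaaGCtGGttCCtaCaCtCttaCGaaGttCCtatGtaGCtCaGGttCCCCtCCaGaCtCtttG
Mrps18c: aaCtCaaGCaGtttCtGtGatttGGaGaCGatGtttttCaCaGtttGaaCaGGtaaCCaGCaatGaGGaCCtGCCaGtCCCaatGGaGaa
The Mrpl54 stretch (bases 31 to 120 of the coding sequence) and the Mrpl28 stretch (bases 68 to 157) come from genes whose whole coding sequences hold 60.7% and 58.1% GC. The Mrpl32 stretch (bases 113 to 202) comes from a coding sequence with 47.2% GC. The paralogs Mrps18a (bases 60 to 149), Mrps18b (bases 3 to 92) and Mrps18c (bases 81 to 170) encode related proteins from coding sequences with 56.0%, 54.3% and 45.0% GC. Over all 77 genes the coding GC ranged from 41.6% to 65.6% with a median of 53.2%, close to the median of 53.3% over all genes tested. The members were short: the length implied by reads per FPKM had a median of 1064 bases against 2896 bases over all genes tested.

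The comparison of hearts labelled Gas2l3 -/- with hearts labelled wildtype asked whether the level of these transcripts differs with the loss of Gas2l3. No member passed the test in either direction. With limma on log2(FPKM + 0.5), a scale that understates changes of low genes, 0 of 77 members had an adjusted p under 0.05 (Benjamini-Hochberg over the 12121 genes with at least 1 FPKM in 3 or more libraries, of which 0% were called). No member had an unadjusted p under 0.05, against 3.25% of all genes tested, and the smallest adjusted p of a member was 0.966. The wildtype and Gas2l3 -/- values overlapped for each of the 77 members, whereas the groups did not overlap for 9.76% of all genes tested (5.02% with Gas2l3 -/- above and 4.74% with it below). By mean, 31 members were higher and 46 lower in Gas2l3 -/- (51% of all genes were lower), but 45 were higher and 32 lower with every library rescaled to the same FPKM total (33% of all genes were then lower). With libraries weighted by their quality in limma, 7 were higher and 70 lower (52.1% of all genes were lower). Under these weights, 6 of 81 cytosolic ribosomal protein genes were higher and 75 lower (median log2 difference -0.37). Of 35 nuclear subunits of complex I, 3 were higher and 32 lower (median -0.37). The median log2 difference, Gas2l3 -/- minus wildtype, was -0.13 over the members and -0.01 over all genes tested. At the same total these medians were 0.05 and 0.15, and with library weights -0.28 and -0.02. The median of the members was -0.31 without wildtype 1, 0.01 without wildtype 2 or without wildtype 3, -0.01 without Gas2l3 -/- 1 and -0.30 without Gas2l3 -/- 2. Single libraries moved the counts too: without wildtype 3, 41 members were higher and 36 lower (49.9% of all genes were lower). Without wildtype 1, 24 members lay wholly below in Gas2l3 -/- (17.3% of all genes), and without wildtype 2, 12 lay wholly above (11.4% of all genes). In whole hearts, fewer cells of a type and less RNA per cell cannot be told apart.

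These values spread widely within the groups. The median standard deviation of a member over the 3 wildtype libraries was 0.65 on the log2 scale and over the 3 Gas2l3 -/- libraries 0.37, against 0.49 and 0.22 over all genes tested. The median standard error of a member's difference was 0.40. The standard errors of single members ran from 0.23 to 0.62, so differences of the size seen here, from -0.88 (Mrpl28) to 0.78 (Mrpl32), were within 2 standard errors of 0 for all members.

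As deposited, the members moved between libraries together. Both libraries numbered 2 lay above both libraries numbered 1 in 73 of the 77 members, in all 48 of the large subunit and 25 of the 29 of the small one, against 32.2% of all genes tested, and the reverse order occurred in 0 members. The deviation of a gene in a library, its log2(FPKM + 0.5) minus its mean over the 6 libraries, had medians over the members of -0.42 in wildtype 1, 0.25 in wildtype 2 and 0.23 in wildtype 3. The medians were -0.33 in Gas2l3 -/- 1, 0.31 in Gas2l3 -/- 2 and -0.16 in Gas2l3 -/- 3. The plot of deviations by library shows this order and the width of wildtype 3. The genes of cytosolic ribosomal proteins, which are also short and build the ribosome outside the mitochondrion, showed a like order. Over their 81 tested members the medians were -0.69, 0.36 and 0.46 in wildtype 1, 2 and 3 and -0.39, 0.60 and -0.26 in Gas2l3 -/- 1, 2 and 3. Over all genes tested, Pearson's r between the deviation and log length was 0.35, -0.31 and -0.10 in wildtype 1, 2 and 3. It was 0.34, -0.42 and 0.19 in Gas2l3 -/- 1, 2 and 3. With GC and length trends removed, medians of the 77 members were -0.09, 0.10 and 0.23 in wildtype 1, 2 and 3. They were -0.09, 0.004 and -0.07 in Gas2l3 -/- 1, 2 and 3.

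**Figure D1:**
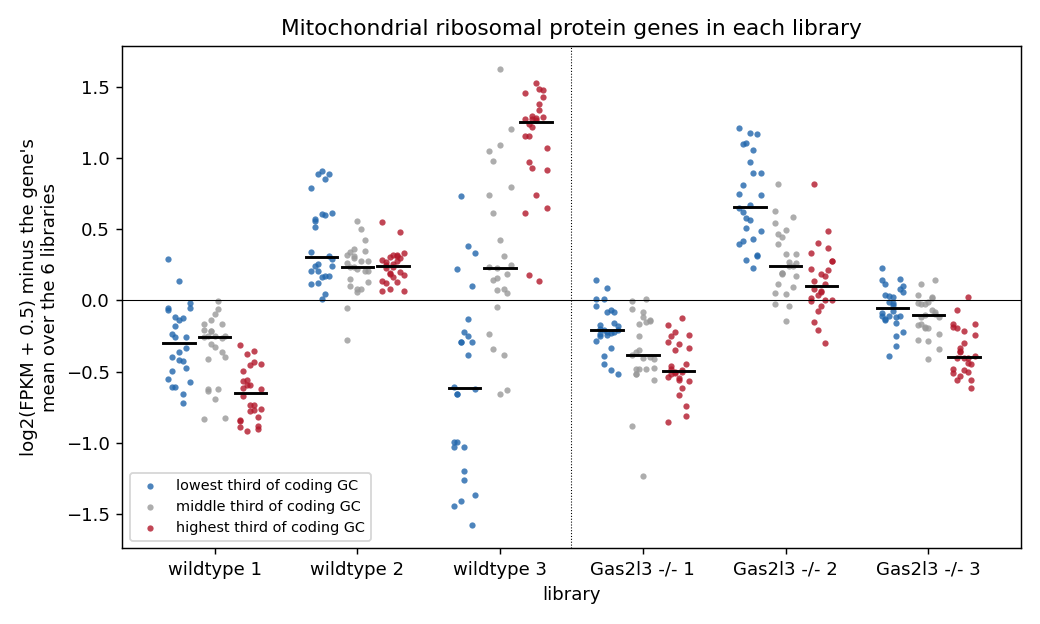
Deviation of each of the 77 members from its own mean (vertical axis, log2 units) in each of the 6 libraries (horizontal axis), with points coloured by group of coding GC and black bars at the median of each group. In wildtype 3 the medians run from -0.61 for the 26 genes of lowest coding GC to 1.25 for the 26 of highest, while in the other libraries the medians of the 3 colours lie much closer together.

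Wildtype 3 was the highest library for 37 members (48.1%), against 37.5% of all genes tested, and the lowest for 18 (23.4%), against 34.1%. Its ratio to the median of the other 5 libraries ran from 0.296 (Mrpl32) to 4.18 (Mrpl23). That ratio was 2 or more for 28 members, against 18.3% of all genes tested, and 0.5 or less for 10, against 13.8%. The side on which a member fell went with its coding GC. Among the 26 members of highest coding GC (56.0% to 65.6%), wildtype 3 was the highest library for 24 and the lowest for 0, with a median ratio of 2.98. Among the 26 of lowest coding GC (41.6% to 51.3%), it was the lowest for 15 and the highest for 2, with a median ratio of 0.70. Across the 77 members, Pearson's r between coding GC and the deviation was 0.81 in wildtype 3. It was -0.58 and -0.38 in wildtype 1 and 2 and -0.46, -0.63 and -0.64 in Gas2l3 -/- 1, 2 and 3. These are descriptions across genes that share libraries, and since the 6 deviations of a gene sum to 0, the other libraries are not independent of wildtype 3. Over all genes tested the corresponding r in wildtype 3 was 0.66.

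**Figure D2:**
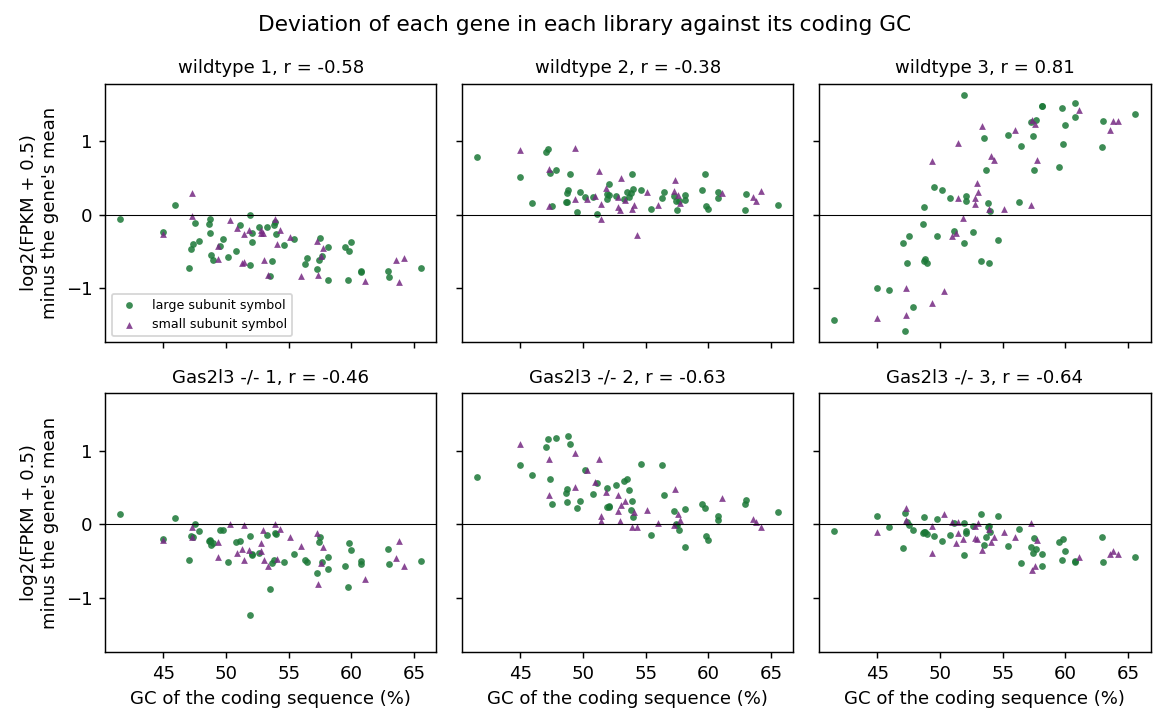
Deviation of each member from its mean (vertical axis, log2 units) against the GC content of its coding sequence (horizontal axis, percent), 1 panel per library, circles for large and triangles for small subunit symbols, with Pearson's r across the 77 genes above each panel. Wildtype 3 rises with coding GC (r = 0.81) and the other 5 libraries fall, and circles and triangles follow the same course.

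The group difference of a member followed the same property. The 26 members of highest coding GC had a median log2 difference of -0.52, with 25 lower by mean, and the 26 of lowest coding GC had a median of 0.29, with 23 higher by mean. The 25 between them had a median of -0.15. Across the 77 members, r between the log2 difference and coding GC was -0.78, against -0.43 over all genes tested. Without wildtype 3 it was -0.25, and the medians of the 3 groups, from lowest to highest coding GC, were 0.09, -0.03 and -0.02. By length the medians were -0.34 for the 26 shortest members, -0.17 for the middle 25 and -0.03 for the 26 longest, and without wildtype 3 they were 0.08, -0.01 and 0.01.

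**Figure D3:**
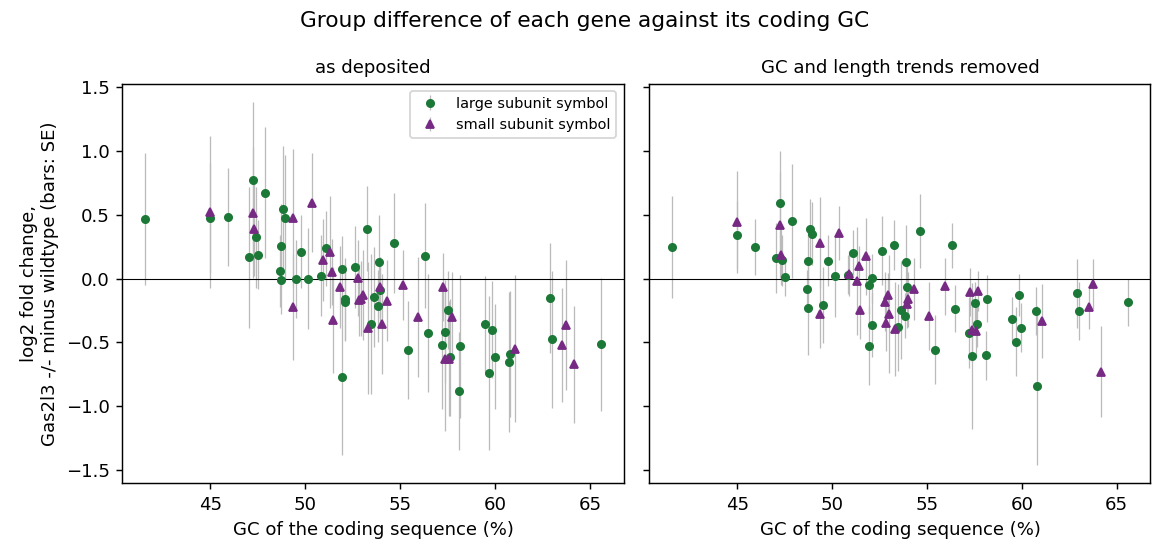
Log2 difference of each member, Gas2l3 -/- minus wildtype (vertical axis, bars are standard errors, 3 libraries per group), against coding GC (horizontal axis, percent), as deposited on the left and with each library's trends on GC content and length removed on the right. As deposited, the values fall from a high of 0.78 at Mrpl32 to a low of -0.88 at Mrpl28. The cloud on the right is flatter, with shorter bars for most members but not all. Mrpl57 and Mrpl17 lie further from 0 on the right (-0.84 and -0.61) than on the left (-0.59 and -0.42), with longer bars. The GC content used on the right is that of the longest transcript, 42.3% for Mrpl57 and 43.0% for Mrpl17. Their coding GC is 60.8% and 57.4%. With coding GC and length trends removed instead, which is not drawn, their differences were -0.36 and -0.24.

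Of the large subunit genes, those with the lowest differences were Mrpl28, Mrpl23, Mrpl12, Mrpl54 and Mrpl2. Mrpl28 (chr17:26123500-26126613, plus strand, ENSMUSG00000024181.9) stood at 75.0, 123 and 284 FPKM in wildtype 1, 2 and 3 and 66.2, 82.2 and 76.5 FPKM in Gas2l3 -/- 1, 2 and 3. Wildtype 3 was the highest and Gas2l3 -/- 1 the lowest, wildtype 1 lay within the Gas2l3 -/- values, and the log2 difference was -0.88 (SE 0.47). Mrpl12 (chr11:120484613-120489065, plus strand, ENSMUSG00000039640.7) encodes the protein of the flexible stalk, which is present in several copies per ribosome and recruits translation factors, and it was the most abundant member. Its levels were 249, 674 and 1262 FPKM in wildtype 1, 2 and 3 and 255, 536 and 330.0 FPKM in Gas2l3 -/- 1, 2 and 3. Wildtype 1 and Gas2l3 -/- 1 were alike at the bottom and wildtype 3 far above the rest, so the groups overlapped, and the log2 difference was -0.74 (SE 0.60). Mrpl54 (chr10:81264713-81266934, minus strand, ENSMUSG00000034932.4), which encodes a protein of the large subunit that bacterial ribosomes lack and is the first of the sequences above, stood at 101, 204 and 502 FPKM in the wildtype libraries and 119, 181 and 123 FPKM in the Gas2l3 -/- libraries. Its value in wildtype 3 was 4.06 times the median of the other 5, while wildtype 1 was below each Gas2l3 -/- library.

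Mrpl23, whose protein lies at the mouth of the tunnel through which the new chain leaves, was at 18.9, 35.9 and 96.1 FPKM in the wildtype libraries and 12.8, 43.6 and 23.0 FPKM in the Gas2l3 -/- libraries. Its log2 difference was -0.77 (SE 0.62), and its coding GC of 51.9% was near the median of the members although wildtype 3 stood highest above the rest for this gene. Mrpl2, whose protein lies near the site of peptide bond formation, was at 64.0, 108 and 233 FPKM in the wildtype libraries and 66.3, 89.7 and 74.9 FPKM in the Gas2l3 -/- libraries, with a log2 difference of -0.62 (SE 0.46). In both genes wildtype 1 lay at or below the level of the Gas2l3 -/- libraries, apart from Gas2l3 -/- 1 for Mrpl23.

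At the other end stood Mrpl32, Mrpl35, Mrpl42, Mrpl50 and Mrpl30. Mrpl32 (chr13:14608184-14613165, minus strand, ENSMUSG00000015672.4) encodes a protein that a protease of the inner membrane matures before the ribosome is assembled. Its levels were 42.0, 109 and 19.2 FPKM in wildtype 1, 2 and 3 and 52.4, 132 and 65.0 FPKM in Gas2l3 -/- 1, 2 and 3. Wildtype 3 was the lowest library and both libraries numbered 2 were the highest, and the log2 difference was 0.78 (SE 0.61). Mrpl42, next in abundance after Mrpl12, stood at 267, 495 and 257 FPKM in the wildtype libraries and 322, 906 and 363 FPKM in the Gas2l3 -/- libraries. Gas2l3 -/- 2 was the highest and wildtype 3 the lowest, with wildtype 2 above Gas2l3 -/- 1 and 3, and the log2 difference was 0.55 (SE 0.49). The log2 differences of Mrpl35, Mrpl50 and Mrpl30 were 0.68 (SE 0.52), 0.48 (SE 0.38) and 0.48 (SE 0.49), and wildtype 3 was the lowest library for each. All 5 genes had coding GC below the median of the members, from 45.9% to 49.0%.

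The remaining genes named for their level behaved in like manner. Mrpl33, next in abundance after Mrpl42, was at 146, 436 and 185 FPKM in the wildtype libraries and 172, 501 and 193 FPKM in the Gas2l3 -/- libraries, with both libraries numbered 2 far above the other 4 and a log2 difference of 0.17 (SE 0.55). The least abundant large subunit genes were Mrpl17, Mrpl1 and Mrpl19, with means over the 6 libraries of 9.64, 9.99 and 11.3 FPKM. Mrpl1, whose protein forms a mobile arm beside the exit site for transfer RNA, had the lowest coding GC of all members (41.6%) and stood at 8.58, 15.8 and 2.97 FPKM in the wildtype libraries and 9.92, 14.3 and 8.39 FPKM in the Gas2l3 -/- libraries. Its wildtype 3 value was 0.3 times the median of the other 5 libraries. Mrpl17, with 57.4% coding GC, was at 5.58, 10.1 and 19.1 FPKM in the wildtype libraries and 7.42, 8.91 and 6.66 FPKM in the Gas2l3 -/- libraries, where wildtype 3 was the highest library instead.

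**Figure D4:**
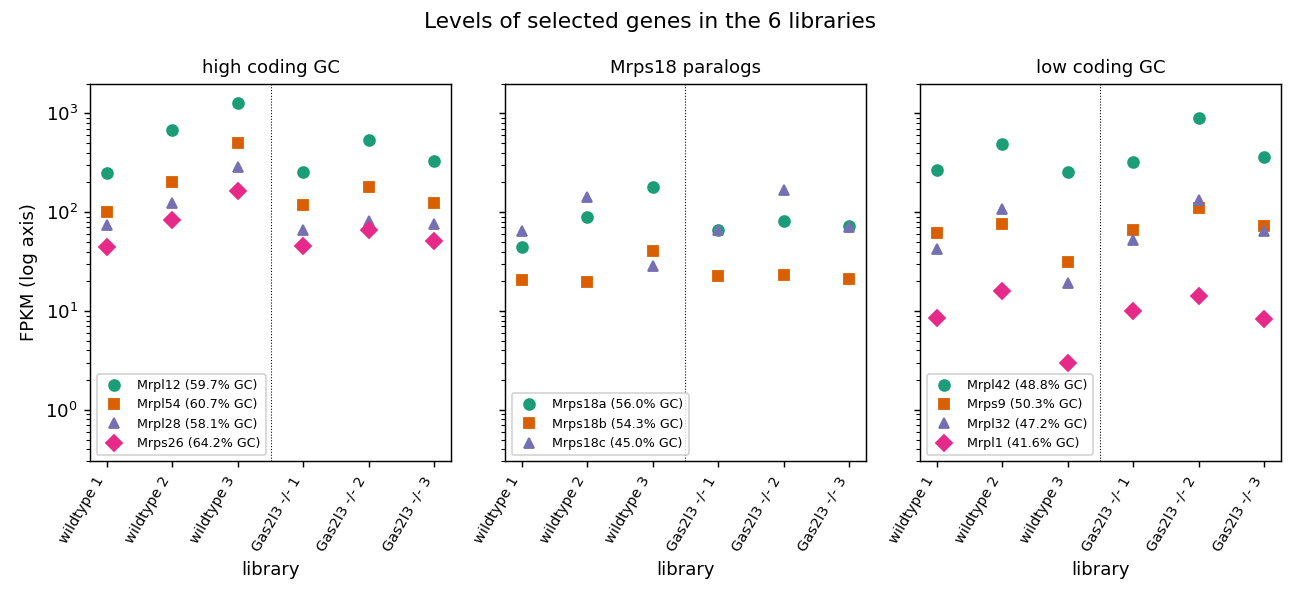
FPKM (vertical, log axis) of 11 members in each of the 6 libraries (horizontal axis), 1 point per library, for 4 genes of high coding GC, the 3 Mrps18 paralogs and 4 genes of lower coding GC. Wildtype 3 is the highest library for each gene on the left and the lowest for each on the right, and the middle panel shows Mrps18a and Mrps18c on opposite sides of the other libraries there.

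Of the small subunit genes, Mrps26, Mrps28, Mrps11, Mrps24 and Mrps12 had the lowest differences. Mrps26 (chr2:130563742-130568695, plus strand, ENSMUSG00000037740.8), with 64.2% coding GC, stood at 44.4, 84.1 and 164 FPKM in wildtype 1, 2 and 3 and 45.4, 65.5 and 50.6 FPKM in Gas2l3 -/- 1, 2 and 3. Wildtype 3 was 3.25 times the median of the other 5, wildtype 1 was the lowest of the 6, and the log2 difference was -0.67 (SE 0.46). Mrps12, whose protein lies in the decoding centre, was at 51.5, 94.1 and 177 FPKM in the wildtype libraries and 57.5, 83.7 and 59.7 FPKM in the Gas2l3 -/- libraries, with a log2 difference of -0.52 (SE 0.45). Again wildtype 1 was the lowest and wildtype 3 the highest. Mrps28 and Mrps24 had log2 differences of -0.63 (SE 0.57) and -0.55 (SE 0.58), with the same libraries at the ends.

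The highest differences of the small subunit were those of Mrps9, Mrps18c, Mrps22, Mrps33 and Mrps31. Mrps9 (chr1:42851233-42905683, plus strand, ENSMUSG00000060679.14) stood at 62.1, 75.4 and 31.6 FPKM in wildtype 1, 2 and 3 and 65.5, 109 and 71.9 FPKM in Gas2l3 -/- 1, 2 and 3. Wildtype 3 was the lowest, wildtype 2 lay above Gas2l3 -/- 1 and 3, and the log2 difference was 0.60 (SE 0.39). The log2 differences of Mrps33 and Mrps31 were 0.48 (SE 0.54) and 0.39 (SE 0.37), and wildtype 3 was the lowest library for both. The most abundant small subunit genes were Mrps21, Mrps16 and Mrps24, with means of 247, 162 and 153 FPKM. Mrps21 stood at 179, 258 and 409 FPKM in the wildtype libraries and 169.8, 266 and 200.1 FPKM in the Gas2l3 -/- libraries, with a log2 difference of -0.36 (SE 0.39). The least abundant were Mrps25, Mrps33 and Mrps18b, with means of 9.9, 20.4 and 24.6 FPKM.

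The 3 Mrps18 paralogs encode versions of the same bacterial ribosomal protein, and their coding stretches above differ in GC. Mrps18a (chr17:46110986-46128910, plus strand, ENSMUSG00000023967.9) stood at 44.9, 88.6 and 180.5 FPKM in wildtype 1, 2 and 3 and 65.8, 81.7 and 71.8 FPKM in Gas2l3 -/- 1, 2 and 3. Mrps18b (chr17:35910379-35916389, minus strand, ENSMUSG00000024436.16) stood at 20.6, 19.5 and 40.2 FPKM in wildtype 1, 2 and 3 and 22.8, 23.3 and 21.1 FPKM in Gas2l3 -/- 1, 2 and 3. Mrps18c (chr5:100798627-100804471, plus strand, ENSMUSG00000016833.14) stood at 64.3, 143 and 28.7 FPKM in wildtype 1, 2 and 3 and 66.5, 166 and 71.5 FPKM in Gas2l3 -/- 1, 2 and 3. Wildtype 3 was the highest library for Mrps18a and Mrps18b and the lowest for Mrps18c, at 2.51, 1.9 and 0.401 times the median of the other 5, which is the order of their coding GC. The log2 differences were -0.30 (SE 0.47), -0.17 (SE 0.32) and 0.52 (SE 0.59), and without wildtype 3 they were 0.20 for Mrps18a, 0.16 for Mrps18b and -0.05 for Mrps18c.

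Mrps11 and Mrpl46 are neighbours that start head to head and, in GENCODE M21, overlap at their first exons, so reads there cannot be told apart without strand. Mrps11 lies at chr7:78783119-78792989, plus strand, ENSMUSG00000030611.10 and Mrpl46 at chr7:78775236-78783531, minus strand, ENSMUSG00000030612.6. The window around the Mrps11 start from RefSeq on GRCm38.p6, chr7:78782881-78783180 on the plus strand, holds the RefSeq start sites of both genes, 42 bases apart, and is shown because a gene of each subunit starts in it. Capitals mark a match to the YY1 core (AAGATGG, here read on the other strand) and a GC box (GGGCGG).
Mrps11 promoter: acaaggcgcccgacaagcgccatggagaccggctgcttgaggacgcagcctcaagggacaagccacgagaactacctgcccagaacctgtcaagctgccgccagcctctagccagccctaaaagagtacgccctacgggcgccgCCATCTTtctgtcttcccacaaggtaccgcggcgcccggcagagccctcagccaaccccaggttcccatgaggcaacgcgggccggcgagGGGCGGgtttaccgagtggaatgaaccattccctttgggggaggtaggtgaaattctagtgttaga
Despite the shared start region the genes differed between libraries. Mrps11 was at 23.6, 42.5 and 83.4 FPKM in wildtype 1, 2 and 3 and 24.4, 38.7 and 23.6 FPKM in Gas2l3 -/- 1, 2 and 3. Mrpl46 was at 37.3, 63.2 and 39.2 FPKM in wildtype 1, 2 and 3 and 34.7, 88.4 and 54.2 FPKM in Gas2l3 -/- 1, 2 and 3. Wildtype 3 was the highest library for Mrps11, with 57.6% coding GC, and wildtype 3 lay close to wildtype 1 for Mrpl46, with 54.7%. The log2 differences were -0.63 (SE 0.45) for Mrps11 and 0.28 (SE 0.39) for Mrpl46. Mrpl46 was chosen as this neighbour after its values were seen.

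Promoter windows of 300 bases were held by the RefSeq table for 68 of the 77 members. On either strand, 25 of the 68 (36.8%) held the ETS core CCGGAAG, against 20.4% of the tested genes with a window, and 13 (19.1%) held the YY1 core, against 8.48%. The NRF1 core GCATGCG was in 8 (11.8%), against 7.49%. A GC box was in 34 (50.0%), against 70.7% of tested genes. Over all genes in the promoter table the shares were 9.93% for the ETS core, 7.28% for the YY1 core, 4.01% for the NRF1 core and 38.2% for the GC box. ETS factors of the GABP kind, NRF1 and YY1 are known regulators of nuclear genes for mitochondria. A match describes letters in a window and not a bound site.

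Among the genes linked to inherited disease of mitochondrial translation, Mrpl3 and Mrpl44 had the smallest standard errors of the 5 named here. Mrpl3, whose protein reaches towards the site of peptide bond formation, stood at 64.5, 76.2 and 57.0 FPKM in the wildtype libraries and 70.2, 85.0 and 69.3 FPKM in the Gas2l3 -/- libraries. Its log2 difference was 0.19 (SE 0.27), and wildtype 3 was the lowest library. Mrpl44 stood at 26.0, 40.0 and 32.5 FPKM in the wildtype libraries and 28.4, 33.5 and 29.3 FPKM in the Gas2l3 -/- libraries, with a log2 difference of -0.09 (SE 0.26) and wildtype 2 the highest library. Mrps22 ranged further, at 35.6, 55.6 and 13.7 FPKM in the wildtype libraries and 31.9, 67.5 and 37.6 FPKM in the Gas2l3 -/- libraries, with a log2 difference of 0.52 (SE 0.51) and wildtype 3 at 0.364 times the median of the other 5. Mrps14 stood at 23.2, 56.2 and 31.0 FPKM in the wildtype libraries and 29.2, 69.2 and 31.1 FPKM in the Gas2l3 -/- libraries, with both libraries numbered 2 above the other 4. Mrps16 stood at 81.2, 166 and 333 FPKM in the wildtype libraries and 97.5, 180.4 and 114 FPKM in the Gas2l3 -/- libraries, with wildtype 3 the highest and wildtype 1 the lowest. The log2 differences of Mrps14 and Mrps16 were 0.21 (SE 0.44) and -0.39 (SE 0.52).

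The subunits did not separate clearly. Of the 48 large subunit genes 22 were higher and 26 lower by mean in Gas2l3 -/-, with a median log2 difference of -0.05. Of the 29 small subunit genes 9 were higher and 20 lower, with a median of -0.16. The difference between these medians was 0.10 as deposited, 0.07 with the subunits taken from protein structure and 0.03 with GC and length trends removed. It was 0.02 without wildtype 3, -0.02 without Gas2l3 -/- 2 and -0.0039 with coding GC and length trends removed, so its sign was not stable. Without wildtype 3 the median was 0.02 for the large subunit and -0.0047 for the small one. At the same FPKM total the medians were 0.12 and 0.02, with a difference of 0.10. Coding GC (medians 53.4% and 53.0%) and implied length (medians 1063 and 1064 bases) were alike in both sets. Within a library, the median deviations of the large and small sets lay close: -0.43 and -0.39 in wildtype 1, 0.20 and 0.31 in wildtype 3, and 0.32 and 0.19 in Gas2l3 -/- 2. As shares of all FPKM in a library, large subunit genes made up from 0.68% (wildtype 1) to 0.97% (Gas2l3 -/- 2) and small subunit genes from 0.33% to 0.41% (wildtype 3).

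Trends on GC content and on log length were then removed from each library by loess, fitted over the 11709 tested genes with a known GC content. The median standard deviation of a member fell to 0.37 over the wildtype and 0.18 over the Gas2l3 -/- libraries. Again 0 of 77 members were called by limma, against 0.0256% of the genes, and the smallest adjusted p of a member was 0.518, that of Mrpl28, with a log2 difference of -0.60 (SE 0.19). By mean 29 members were higher and 48 lower (51.5% of genes were lower), and the median was -0.11. The groups did not overlap for 7 members, all lower in Gas2l3 -/-, against 8.45% of genes, and no member lay wholly above, against 6.73%. The 7 were Mrpl28, Mrps26, Mrpl37, Mrpl2, Mrps11, Mrps35 and Mrpl36, with log2 differences of -0.60, -0.73, -0.56, -0.36, -0.41, -0.35 and -0.32. As 7 of 77 is close to the share over all genes, the count does not set the members apart. From the members of lowest to those of highest coding GC the medians were now 0.17, -0.18 and -0.25. With trends on coding GC and length removed instead they were 0.19, -0.13 and -0.23. Part of the relation with coding GC thus remained in both. The members wholly below were not all the same in both. With coding GC and length trends removed, the groups overlapped for Mrpl36 (-0.10), and another member lay wholly below in its place. Mrps26 and Mrps35 were then at -0.40 and -0.17.

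By replicate number, the pairs numbered 1 and 2 had medians above 0 as deposited and the pair numbered 3 below. Gas2l3 -/- 1 was above wildtype 1 in 54 of 77 members (51.2% of all genes), with a median log2 difference of 0.11. Gas2l3 -/- 2 was above wildtype 2 in 45 (52.9% of all genes), with a median of 0.05. Gas2l3 -/- 3 was above wildtype 3 in 26 (50.4% of all genes), with a median of -0.36. The standard deviation over members of these pair differences was 0.21 and 0.27 in pairs 1 and 2 and 1.05 in pair 3. In all 3 pairs, 14 members were higher in Gas2l3 -/- (16.6% of all genes) and 7 were lower (13.8% of all genes). With trends removed the counts above were 40 (49.5% of genes), 31 (46.8%) and 27 (49.3%), with medians of 0.02, -0.06 and -0.34. Members higher in all 3 pairs then numbered 8 (17% of genes) and members lower in all 3 numbered 19 (19.2% of genes).

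In lists of other genes of mitochondrial translation, of mitochondrial DNA and of complex I, 0 genes were called by limma. The lists differed in direction. Counts of higher and lower genes are by mean, and 51% of all genes tested were lower. Values at the same FPKM total or without wildtype 3 are given beside them where they differ much. Of the 6 tested proteins of the ribosome outside these symbols 2 were higher and 4 lower (median -0.27; -0.08 without wildtype 3), or 3 and 3 at the same total (median -0.09). Gadd45gip1, a large subunit protein, was at 26.2, 53.9 and 121.5 FPKM in wildtype 1, 2 and 3 and at 31.2, 42.1 and 31.6 FPKM in Gas2l3 -/- 1, 2 and 3, again highest in wildtype 3, with 63.1% coding GC. Of 19 assembly factors 6 were higher and 13 lower (median -0.19; -0.05 without wildtype 3), or 9 and 10 at the same total (median -0.02). As deposited, 1 of these 19 lay wholly above and 2 wholly below in Gas2l3 -/-, against 5.02% and 4.74% of all genes tested. These counts were 1 and 3 among 17 mitochondrial tRNA synthetases and 1 and 0 among 15 translation factors. Among 35 nuclear subunits of complex I they were 0 and 1. The assembly factor above was Fastkd2, a protein of mitochondrial RNA granules that takes part in ribosome assembly. It stood at 12.5, 16.3 and 11.0 FPKM in the Gas2l3 -/- libraries against 10.2, 7.26 and 3.84 FPKM in the wildtype libraries. The log2 difference of Fastkd2 was 0.93 (SE 0.36), with an adjusted p of 0.966 by limma. Its coding GC was 41.8%, and wildtype 3 was its lowest library. Of 15 translation factors 12 were higher and 3 lower (median 0.16), or 8 higher and 7 lower without wildtype 3 (median 0.00), and their median coding GC was 48.9%. Of 17 mitochondrial tRNA synthetases 8 were higher and 9 lower (median -0.12), or 9 higher and 8 lower at the same total (median 0.05) or without wildtype 3 (median 0.00). Of 9 genes for transcription and replication of mitochondrial DNA 7 were higher and 2 lower (median 0.31; 0.08 without wildtype 3), at a median coding GC of 46.2%. Of the 35 tested nuclear subunits of complex I, the first enzyme of the respiratory chain, 9 were higher and 26 lower (median -0.33), but 20 were higher and 15 lower without wildtype 3 (median 0.04), and 14 were higher and 21 lower at the same total (median -0.15). Of the 81 tested genes of cytosolic ribosomal proteins 36 were higher and 45 lower (median -0.08). Without wildtype 3, 62 of these were higher and 19 lower (median 0.11), and at the same total 47 and 34 (median 0.10). With library weights the synthetases had 11 higher and 6 lower (median 0.13) and the genes for mitochondrial DNA 3 higher and 6 lower (median -0.12).

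Markers of cell types moved beside these values. Summed over 12 cardiomyocyte markers, the wildtype libraries held 41640.2 to 77441 FPKM and the Gas2l3 -/- libraries 38112.5 to 46467 FPKM, and 11 of the 12 were lower by mean in Gas2l3 -/- (median log2 difference -0.41), or 10 of the 12 without wildtype 3 (median -0.17) and 9 of the 12 at the same FPKM total (median -0.23). Fibroblast markers were higher by mean in 5 of 6 (median 0.35) and macrophage markers in 5 of 5 (median 0.23), with sums of 27.5 to 36.5 FPKM in wildtype and 47.0 to 85.8 FPKM in Gas2l3 -/- for the latter, although with quantile normalization 3 of the 5 macrophage markers were higher. Endothelial markers were higher in 3 of 5 (5 of 5 without wildtype 3) and smooth muscle markers in 2 of 4 (3 of 4 without wildtype 3). The 3 erythroid markers were higher by mean, with a sum of 122.6 FPKM in Gas2l3 -/- 1 against 28.0 to 49.5 FPKM in the other 5 libraries. No marker was called by limma. The part of cell makeup in the values of the members was not tested.

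In the authors' deposited table of the same comparison, all 77 members were listed and 75 carried an adjusted p-value, of which none was under 0.05. Among the members, the smallest adjusted p in the authors' deposited table was 0.998 and the smallest p was 0.0164, that of Mrpl28. The share called there over all genes is not given here. Log2 fold changes of the members in the authors' deposited table ran from -0.71 (Mrpl28) to 0.42 (Mrpl42). By these values 31 members were higher and 46 lower, and their signs matched those of the limma values for all 77.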

How the data were processed

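The members and the gene lists were chosen with earlier results of these data known. Per the file headers and the labels, the authors deposited 1 table of FPKM values for each gene in each library and 1 table of their own comparison with log2 fold changes, p-values and adjusted p-values. The submitters' processing notes name the genome build mm10, DESeq2 and FastQC, and the aligner is not given in the sources used here. Dividing each gene's mean count in the authors' table by its mean FPKM recovered whole reads, within 0.01, for 100% of the 94235 values above 0. Genes with at least 1 FPKM in 3 or more of the 6 libraries were tested with limma 3.58.1 in R 4.3.3 (functions lmFit and eBayes, the latter with trend on) on log2(FPKM + 0.5), with the 3 libraries of each group, and p-values were adjusted by Benjamini-Hochberg over 12121 genes. GC content was that of a gene's longest transcript in GENCODE M21, coding GC that of its longest coding sequence there, and length was taken from reads per FPKM. Loess trends (span 0.3, 2 rounds) were removed on GC content and log length. The test was also run on simulated data with known answers. Their spread and GC trends were set by hand, so that run does not measure power or error in these libraries.

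Named members were the 5 highest and 5 lowest log2 differences and the 3 most and 3 least abundant of each subunit, the disease-linked Mrpl3, Mrpl44, Mrps14, Mrps16 and Mrps22, and the Mrps18 paralogs. Mrpl46, Mrpl36, Mrpl37 and Mrps35 were named after their values were seen. From each other list, up to 3 genes of smallest p could be named. Same-numbered libraries deviated together: the correlations of their deviations from group means over all genes were 0.47, 0.44 and 0.19 for numbers 1, 2 and 3. For every wildtype library, the best match among the 3 Gas2l3 -/- libraries was the one of its own number. The labels do not say what a number stands for. Exons of 23 members overlap another gene of the table. Alternatives were another pseudocount, filter, scaling, library weights, voom on whole reads, the replicate block, trends removed, and each library left out.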

Additional observations from a re-analysis of the deposited data

How the results depend on the processing

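No member was called by limma in either direction under the 23 alternatives run, and the smallest adjusted p of any member was 0.303, with the replicate block and coding GC and length trends removed. The replicate block, taken from the replicate numbers, changed no call: as deposited it called 0 members with the same median of -0.13 and a smallest adjusted p of 0.782, and with GC and length trends removed 0 members with a smallest adjusted p of 0.362. The direction of single members depended on the setting; the cause was not tested. The limits are the depth, from 41 reads for a member in a library, and the 3 libraries per group. Alternatives on a single trend, on coding GC, on trends without wildtype 3 and on subunits by structure were chosen after seeing the data.

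Members lying wholly above and wholly below in Gas2l3 -/- numbered 0 and 0 as deposited. With the shares of all genes in brackets, the counts were 1 (4.5%) and 3 (3.2%) at a common FPKM total, 2 (4.61%) and 4 (5.59%) with quantile normalization, 1 (5.57%) and 2 (6.86%) with the GC trend alone removed and 1 (5.44%) and 6 (6.72%) with the length trend alone removed. They were 0 (6.73%) and 7 (8.45%) with GC and length trends removed, and 2 (6.5%) and 7 (8.95%) with coding GC and length trends removed, each with or without the replicate block. Without wildtype 3 and with trends removed they were 0 (11.3%) and 10 (13.6%). Library weights gave 7 members higher and 70 lower (52.1% of all genes lower), and 6 cytosolic ribosomal protein genes higher and 75 lower.

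The median of the large minus that of the small subunit was 0.0264 with GC and length trends removed (with or without the block), -0.0022 with the GC trend alone removed, -0.0039 with coding GC and length trends removed (with or without the block) and 0.0083 without wildtype 3 and with trends removed.

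Signs were followed over all 77 members, and values are given for the 36 named ones. Among the other 41, signs turned for 10 at a common total, 7 with quantile normalization, 4 with GC and length or the GC trend alone removed, 3 with the length trend alone removed, 8 with coding GC and length trends removed, 12 with library weights, 10 without wildtype 3 and with trends removed, and 1 each with a pseudocount of 0.1 FPKM and with voom. Among the named members the values were as follows. At a common total: Mrps25 0.0463, Mrps18b 0.0051, Mrpl44 0.0855 and Mrps35 0.012. With GC and length trends removed, with or without the replicate block: Mrpl19 -0.0466 and Mrps14 -0.018. With the GC trend alone removed: Mrpl19 -0.0365 and Mrps14 -0.013. With coding GC and length trends removed, with or without the block: Mrpl19 -0.0027 and Mrpl3 -0.016. With library weights: Mrpl32 -0.24, Mrpl35 -0.21, Mrpl42 -0.0806, Mrpl30 -0.24, Mrpl33 -0.64, Mrpl1 -0.42, Mrpl19 -0.17, Mrps18c -0.48, Mrps22 -0.24, Mrps33 -0.44, Mrps18b 0.0632, Mrpl3 -0.019, Mrps14 -0.42 and Mrpl46 -0.0697. Without wildtype 3 and with trends removed: Mrpl33 -0.000742, Mrpl17 0.0545, Mrpl1 -0.0724, Mrpl19 -0.0796, Mrps18c -0.0685, Mrps22 -0.10, Mrps33 -0.0396, Mrps31 -0.0455, Mrps16 0.0779, Mrps25 0.0323, Mrps18b 0.0602 and Mrps18a 0.12.

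With each library left out in turn, members wholly above ran from 0 to 12 (12 without wildtype 2) and wholly below from 0 to 24 (24 without wildtype 1), members higher by mean from 19 (without Gas2l3 -/- 2) to 41 (without wildtype 3), and the large minus small median from -0.017 (without Gas2l3 -/- 2) to 0.14. Of the 77 members 42 turned sign on leaving out some library, 16 named and 26 others. Log2 differences of those named ran from -0.32 to 0.64 for Mrpl33, -0.19 to 0.56 for Mrps14, -0.47 to 0.0916 for Mrps25, -0.24 to 0.0598 for Mrpl44, -0.83 to 0.0134 for Mrpl17, -0.13 to 0.98 for Mrpl1, -0.10 to 0.23 for Mrpl19, -1.14 to 0.0291 for Mrps24, -0.0521 to 1.10 for Mrps18c, -0.0403 to 0.95 for Mrps22, -0.0047 to 1.05 for Mrps33, -0.00623 to 0.64 for Mrps31, -0.90 to 0.12 for Mrps16, -0.35 to 0.16 for Mrps18b, -0.79 to 0.20 for Mrps18a and -0.0594 to 0.61 for Mrpl46.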
